A study of Homo sapiens with 10 samples.

Results

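The transcription factor NRF2, encoded by NFE2L2, its inhibitor KEAP1 and 7 antioxidant genes known as NRF2 targets were examined in 2 human glioma cell lines in which the homeobox gene MEOX2 was silenced or overexpressed, respectively. These 9 genes of the 34567 in the count table were HMOX1, NQO1, GCLC, GCLM, TXNRD1, SRXN1 and OSGIN1 besides NFE2L2 and KEAP1, and were found by gene symbol. The set was selected on measured values, after GCLC had been seen at higher levels in both perturbed lines, so the 2 changes of GCLC are given as a description without a test. All 9 genes passed the filter on low counts, which left 17312 genes. NRF2 is a basic leucine zipper factor that is held in the cytoplasm and marked for degradation by the adaptor KEAP1. When oxidants or electrophiles modify KEAP1, NRF2 accumulates, pairs with small MAF proteins and binds antioxidant response elements near its targets. Its activity is set mainly at the protein level, and KEAP1 or NFE2L2 mutations that keep it active are known from several tumours.

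RNA was sequenced from 3 SNB19 libraries transfected with scramble siRNA (controls), 3 SNB19 libraries transfected with MEOX2 siRNA (siMEOX2), 2 U87 libraries with an empty lentiviral vector (EV) and 2 U87 libraries with a MEOX2 lentivirus. SNB19 and U87 are established human glioblastoma lines. The siRNA was delivered transiently by lipofection, whereas the U87 cells carried a lentivirus and were selected as stable lines, so that cell line and delivery cannot be told apart. Which MEOX2 siRNA was used for sequencing, and whether the replicates were separate cultures, is not stated, and the p-values therefore measure the spread between these libraries, which may be technical.

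By GENCODE release 29 (GRCh38), NFE2L2 spans chr2:177227595-177392697, KEAP1 spans chr19:10486120-10503741 and GCLC spans chr6:53497341-53616970, all on the minus strand. GCLM (chr1:93885205-93909456), NQO1 (chr16:69706996-69726951) and SRXN1 (chr20:646615-653370) are also on the minus strand. TXNRD1 (chr12:104215779-104350305), HMOX1 (chr22:35380361-35394214) and OSGIN1 (chr16:83948282-83966332) are on the plus strand. SRXN1 shares 85.0% of its 2698 exon bases with AL121758.1, a protein-coding gene on the same strand that drew 15 counts over the 10 libraries, so its count is uncertain. NQO1 shares 17.7% of its exon bases with an antisense gene, NFE2L2 shares 17.6% with a gene on its own strand and OSGIN1 shares 13.9%. The strand setting of the counting is not given in the sources used here.

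Promoters from 250 bases before to 50 bases after the start site (RefSeq, GRCh38.p14) were found for 8 members, all but HMOX1, 11 promoters in all. They were searched on both strands for the core of the antioxidant response element, TGACNNNGC. It was found in 4 of the 11, against 13.3% of all 35116 promoters of this length. The promoters that held it, those of KEAP1, GCLM and TXNRD1, are shown to give the letters of each match. Neither promoter of NFE2L2, a member called in both lines, held it, nor did those of GCLC, NQO1, OSGIN1 and SRXN1. Capitals mark the core, read directly or as its reverse complement, and each sequence is written 5′ to 3′ on the strand of the gene.
GCLM, chr1:93909381-93909680, minus strand: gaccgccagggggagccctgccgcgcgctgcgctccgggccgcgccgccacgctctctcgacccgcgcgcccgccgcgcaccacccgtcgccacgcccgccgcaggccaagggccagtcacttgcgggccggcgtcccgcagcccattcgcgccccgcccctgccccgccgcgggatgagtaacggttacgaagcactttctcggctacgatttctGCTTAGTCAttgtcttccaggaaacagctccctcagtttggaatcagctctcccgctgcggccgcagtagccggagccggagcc
KEAP1, chr19:10502722-10503021, minus strand: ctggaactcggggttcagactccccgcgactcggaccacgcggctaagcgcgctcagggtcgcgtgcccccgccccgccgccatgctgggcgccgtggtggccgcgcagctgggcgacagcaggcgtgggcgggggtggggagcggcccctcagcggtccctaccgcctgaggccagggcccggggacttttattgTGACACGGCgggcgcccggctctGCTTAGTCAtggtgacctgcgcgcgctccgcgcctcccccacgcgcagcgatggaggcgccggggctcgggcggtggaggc
TXNRD1, chr12:104215529-104215828, plus strand: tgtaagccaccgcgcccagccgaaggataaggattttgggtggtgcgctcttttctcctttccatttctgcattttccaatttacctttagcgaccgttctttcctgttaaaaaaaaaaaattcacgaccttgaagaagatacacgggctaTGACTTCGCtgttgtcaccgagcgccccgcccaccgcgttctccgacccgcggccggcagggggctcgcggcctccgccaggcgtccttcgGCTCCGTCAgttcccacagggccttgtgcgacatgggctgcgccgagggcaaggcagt
TXNRD1, chr12:104286782-104287081, plus strand: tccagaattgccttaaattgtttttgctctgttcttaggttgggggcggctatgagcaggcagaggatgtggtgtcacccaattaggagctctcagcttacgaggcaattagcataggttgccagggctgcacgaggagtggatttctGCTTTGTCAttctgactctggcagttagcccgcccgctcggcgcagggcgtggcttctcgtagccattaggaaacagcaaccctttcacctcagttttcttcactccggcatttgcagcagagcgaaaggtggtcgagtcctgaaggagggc

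In GCLM the core began 34 bases before the start site, and in KEAP1 a pair of cores began 54 and 31 bases before it. The GCLM core and the second KEAP1 core had the same letters, TGACTAAGC, on the strand opposite to the gene, and the other KEAP1 promoter held no core. The cores of TXNRD1 began 99 and 8 bases before the start site in the upstream promoter and 102 bases before it in the downstream promoter. The longer form TGACTCAGC was in none of the 11 promoters and in 0.561% of all promoters. The AP-1 letters TGACTCA, which the longer form contains, were in 1 of the 11, that of OSGIN1, and in 4.95% of all, and the homeobox letters TAATTA were in none and in 4.84% of all. A match is a string of letters and not a measured binding site, and more distant elements lie outside these windows.

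The libraries held 12533775 to 16560324 counts. MEOX2 stood at 14.4, 15.5 and 16.7 normalised CPM (counts scaled to library size with TMM factors) in control SNB19 and at 3.13, 2.47 and 3.07 after siRNA. It had 0 counts in both EV libraries and 414 and 382 CPM in the MEOX2 libraries, at least 1490-fold higher against a floor of 3 counts per library. EV library 1 stood apart from every other library. Its correlation with EV library 2 was 0.944, against 0.989 to 0.992 for the closest replicates elsewhere, and 19.4% of its counts fell in its top 50 genes, against 12% to 14% elsewhere. Relative to EV library 2 it was higher in short genes and lower in long ones, with a median log2 difference of 0.59 over the 4328 shortest genes and -0.59 over the 4328 longest. The 2 MEOX2 libraries differed by medians of -0.06 and 0.05 over the same genes. EV library 2 was closer to the MEOX2 libraries, with correlations of 0.964 and 0.963, than to EV library 1 at 0.944. The spread of the EV pair enters every test of the joint fit, and for many of the results below the value without one of the EV libraries is given as well. Of the glial markers, VIM was detected in both lines and GFAP was under 0.4 FPKM in every library. In U87 SOX2 was at or under 0.0953 FPKM and S100B was listed at 0. NES was at or above 3.72 FPKM in SNB19, at 2.51 to 3.04 in EV and at 0.187 to 0.221 in MEOX2 U87. OLIG2 was higher in both perturbed lines, opposite to the summed level below. It was at most 1.17 FPKM in control and at least 1.52 in siMEOX2 SNB19. In U87 it was at most 1.61 FPKM in EV and at least 5.93 in MEOX2 libraries. The summed level of 6 glial markers, most of it VIM, was 184 to 187 FPKM in control and 93.6 to 99.8 in siMEOX2 SNB19. It was 245 to 692 FPKM in EV and 124 to 125 FPKM in MEOX2 U87. The summed level of 4 immune markers stayed under 1 FPKM throughout, and that of 3 endothelial markers was 5.11 to 5.68 FPKM in control and 0.784 to 1.17 FPKM in siMEOX2 SNB19. The part of these markers in the results was not tested.

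**Figure D1:**
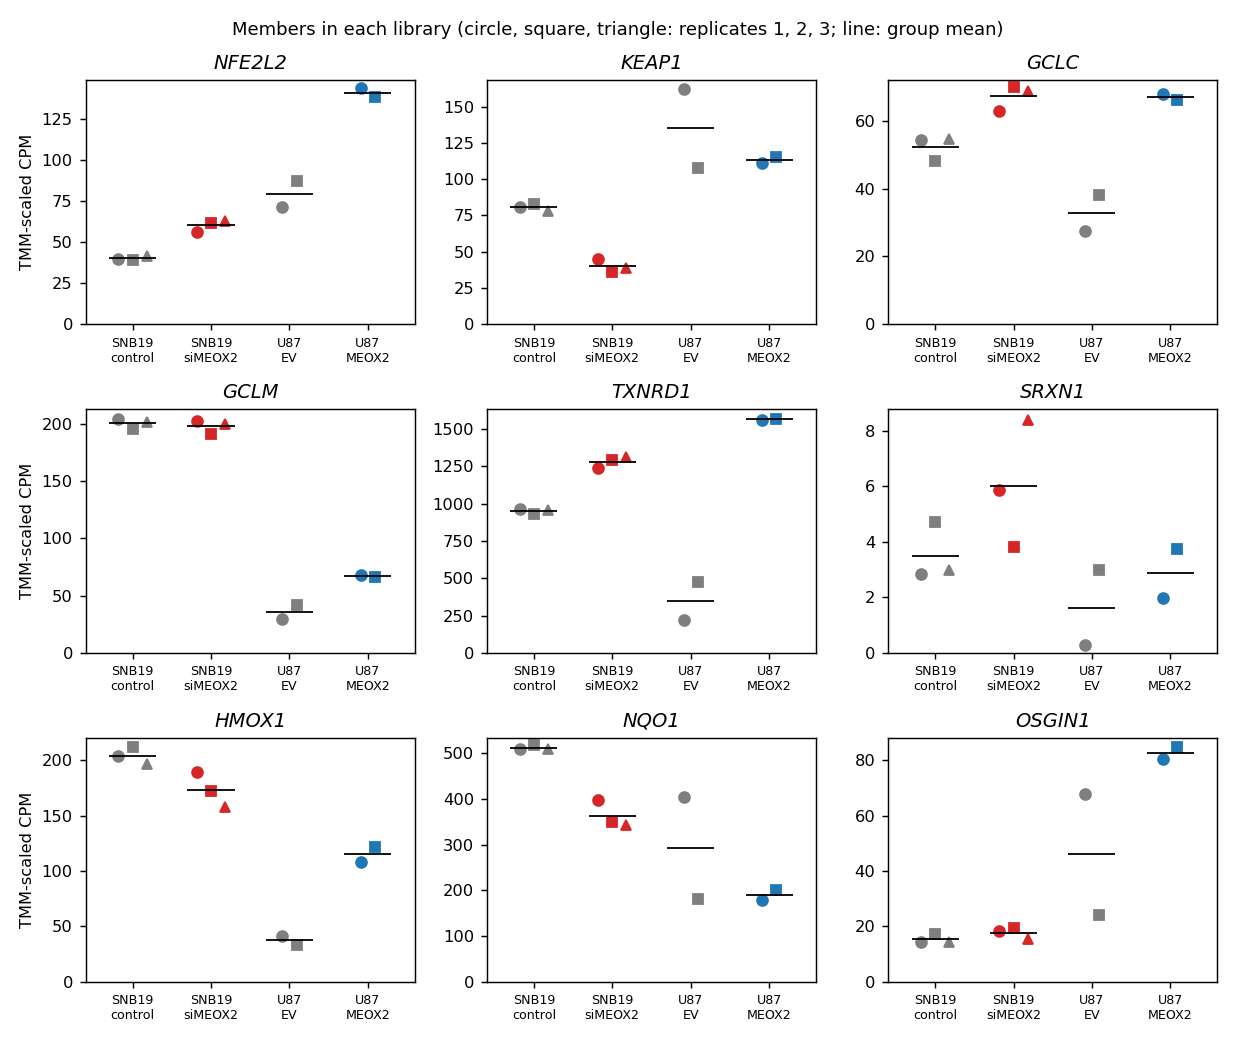
TMM-scaled CPM (linear axes from 0) of each member in the 10 libraries, one panel a gene, with circles, squares and triangles for replicates 1, 2 and 3 and a line for the group mean. KEAP1 is lower in all 3 siMEOX2 libraries than in all controls, TXNRD1 and HMOX1 are higher in both MEOX2 libraries of U87 than in both EV libraries, and NQO1 and OSGIN1 of the 2 EV libraries lie far apart.

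Levels were compared between genes on the FPKM scale, which divides by gene length. In control SNB19 the NADPH quinone reductase NQO1 was the highest member (166 ± 1.95 FPKM, SD, n = 3), followed by the thioredoxin reductase TXNRD1 (149 ± 2.75), the heme oxygenase HMOX1 (89.3 ± 3.03) and GCLM (38.9 ± 0.852). KEAP1 (22.5 ± 0.586), NFE2L2 (7.03 ± 0.252), GCLC (6.37 ± 0.456), OSGIN1 (4.66 ± 0.511) and the sulfiredoxin gene SRXN1 (1.37 ± 0.408) followed. No neighbours in this order overlapped between libraries. After MEOX2 siRNA TXNRD1 (214 ± 9.77) stood above NQO1 (125 ± 8.28), and KEAP1 and NFE2L2 overlapped at means of 11.8 and 11.2 FPKM. In EV-carrying U87 the order was NQO1, TXNRD1, KEAP1, HMOX1, NFE2L2, OSGIN1, GCLM, GCLC and SRXN1, with means from 69.5 to 0.562 FPKM. Only KEAP1 over HMOX1 and GCLC over SRXN1 were separated there without overlap. With MEOX2 overexpression TXNRD1 was first at 223 ± 1.41 FPKM (n = 2), well above NQO1 at 55.7 ± 4.08, and the only neighbours that overlapped were OSGIN1 and NFE2L2, at 22.8 and 22.5 FPKM.

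The first comparison asked how silencing MEOX2 in SNB19 cells moved the pathway. NFE2L2 rose and KEAP1 fell, the only 2 of the 8 tested members that passed in the joint fit of 10 libraries (1 higher, 1 lower). Of all genes tested, 6.99% passed as higher and 8.75% as lower. NFE2L2 was at 39.8, 38.8 and 41.2 CPM in the controls and at 56.0, 61.2 and 62.7 CPM after siRNA. The groups did not overlap, and NFE2L2 was 1.50-fold higher (log2 change 0.59, SE 0.114, edgeR adjusted p = 0.00937). The call was lost without control library 2 (log2 change 0.57, edgeR adjusted p = 0.053) and without siMEOX2 library 3 (0.56, edgeR adjusted p = 0.0503). A bulk library does not tell fewer cells with a transcript from less of it per cell, here or in the results that follow.

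KEAP1 encodes the substrate adaptor that hands NRF2 to the CUL3 ubiquitin ligase. It was at 80.7, 82.9 and 78.0 CPM in the controls and at 44.9, 36.1 and 38.5 CPM after siRNA. Every siMEOX2 library lay below every control, with a 2.02-fold lower level (log2 change -1.02, SE 0.160, edgeR adjusted p = 0.0037). Counted within each library on the FPKM scale, KEAP1 per NFE2L2 was 3.22, 3.40 and 3.01 in the controls and 1.27, 0.937 and 0.976 after siRNA. This ratio did not overlap between the SNB19 groups. In U87 it was 3.62 and 1.97 in the EV libraries and 1.23 and 1.32 in the MEOX2 libraries, also without overlap, although EV library 1 was much higher than EV library 2.

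GCLC encodes the catalytic and GCLM the modifier subunit of glutamate-cysteine ligase, which makes the first and rate-limiting step of glutathione synthesis. GCLC, whose change selected the set, was at 54.3, 48.1 and 54.6 CPM in control SNB19 and at 62.9, 70.0 and 68.9 CPM after siRNA, a log2 change of 0.36. GCLM was at 204, 195 and 201 CPM in the controls and at 203, 191 and 200 CPM after siRNA. Its groups overlapped almost entirely, and its log2 change of -0.02 had a 95% interval of -0.31 to 0.28 and turned positive under upper-quartile scaling (0.06). GCLM per GCLC on the FPKM scale was 6.0, 6.48 and 5.87 in the controls and 5.13, 4.36 and 4.62 after siRNA, lower in each siMEOX2 library. GCLC is the denominator and its rise selected the set, so the lower ratio is a description and not a separate result. In U87 the same ratio was 1.71 and 1.74 in EV and 1.60 and 1.59 in MEOX2 libraries, so that the lines differed more than the treatments.

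TXNRD1 encodes the cytosolic selenoenzyme that keeps thioredoxin reduced. It was at 964, 933 and 959 CPM in control SNB19 and at 1237, 1290 and 1310 CPM after siRNA, without overlap (log2 change 0.43, SE 0.236, edgeR adjusted p = 0.268 in the joint fit). NQO1 was at 509, 517 and 510 CPM in the controls and at 398, 348 and 343 CPM after siRNA, also without overlap (log2 change -0.49, SE 0.244, edgeR adjusted p = 0.213). HMOX1, which opens the heme ring to release biliverdin and iron, was at 204, 212 and 196 CPM and then at 189, 173 and 158 CPM (log2 change -0.24, edgeR adjusted p = 0.251). SRXN1, which repairs overoxidised peroxiredoxins, was low, at 2.83, 4.71 and 2.98 CPM and then at 5.86, 3.82 and 8.40 CPM, and its groups overlapped. OSGIN1, an oxidative stress-induced growth inhibitor, was at 14.4, 17.3 and 14.3 CPM and then at 18.3, 19.4 and 15.5 CPM, with overlap (log2 change 0.21, edgeR adjusted p = 0.721).

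The count of members called was larger where the EV pair did not enter the fit. With the 6 SNB19 libraries alone, 3 of 8 tested members passed as higher and 3 as lower, where 27.4% and 28.5% of 15525 genes passed. NFE2L2 (0.60), TXNRD1 (0.44, SE 0.0444, edgeR adjusted p = 4.53e-08) and SRXN1 (0.81, SE 0.244, edgeR adjusted p = 0.00797) were the higher ones. KEAP1 (-1.001), NQO1 (-0.48, SE 0.0524, edgeR adjusted p = 1.37e-07) and HMOX1 (-0.22, SE 0.0585, edgeR adjusted p = 0.00297) were the lower ones. The log2 changes hardly differed from the joint fit and the standard errors were smaller, from 0.236 to 0.0444 for TXNRD1. GCLM and OSGIN1 did not pass in either fit. The same 3 higher and 3 lower members were called in the fits that left out EV library 1 or EV library 2 alone and kept the other U87 libraries. Of the genes called in the joint fit 44.4% were higher, against 55.2% with upper-quartile scaling and 59.8% with limma on log2(FPKM + 1).

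**Figure D2:**
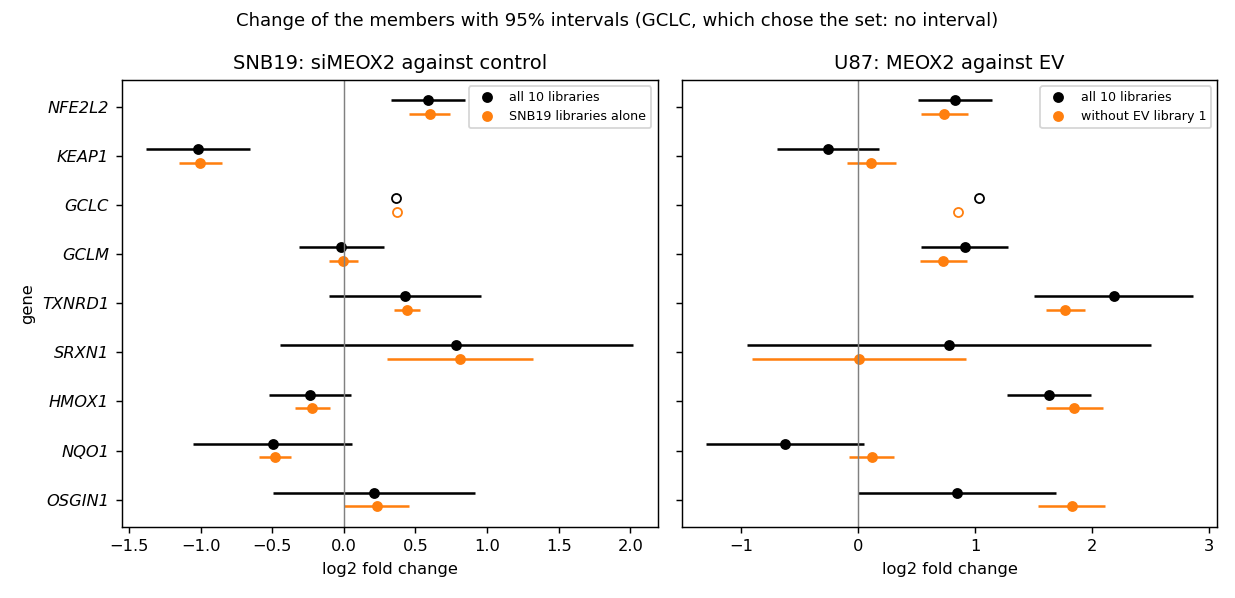
Log2 fold change of each member (x axis) with its 95% interval, left for siMEOX2 against control SNB19 and right for MEOX2 against EV U87, black from all 10 libraries and orange from the SNB19 libraries alone (left) or without EV library 1 (right). GCLC is drawn open without an interval. KEAP1 at -1.02 and NFE2L2 at 0.59 lie clear of 0 on the left in both fits, and HMOX1, TXNRD1, GCLM and NFE2L2 lie above 0 on the right in both.

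The second comparison asked how overexpressing MEOX2 in U87 cells moved the same genes. NFE2L2, GCLM, TXNRD1 and HMOX1 rose, 4 of the 8 tested members, and 0 fell by edgeR or DESeq2, or by edgeR at an unadjusted p under 0.05. Of all genes tested, 11.3% passed as higher and 14.9% as lower. HMOX1 was at 41.5 and 33.1 CPM in the EV libraries and at 109 and 122 CPM in the MEOX2 libraries. Both MEOX2 libraries lay well above both EV libraries, 3.10-fold on average (log2 change 1.63, SE 0.160, edgeR adjusted p = 0.000232). TXNRD1 was at 217 and 473 CPM in the EV and at 1561 and 1569 CPM in the MEOX2 libraries. The groups did not overlap and the change was 4.53-fold (log2 change 2.18, SE 0.301, edgeR adjusted p = 0.00129), but it was 3.41-fold without EV library 1 and 7.37-fold without EV library 2.

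NFE2L2 itself was at 71.4 and 87.03 CPM in the EV and at 143 and 138 CPM in the MEOX2 libraries, 1.78-fold higher without overlap (log2 change 0.83, SE 0.139, edgeR adjusted p = 0.00329). GCLM was at 29.4 and 41.6 CPM in the EV and at 67.9 and 65.8 CPM in the MEOX2 libraries (log2 change 0.91, SE 0.165, edgeR adjusted p = 0.00474), again without overlap. GCLC ran almost level with GCLM in CPM, at 27.4 and 38.2 in the EV and 67.9 and 66.0 in the MEOX2 libraries, a log2 change of 1.03 that is given without a test, with 0.85 without EV library 1 and 1.32 without EV library 2. KEAP1 was at 162 and 108 CPM in the EV and at 111 and 115 CPM in the MEOX2 libraries. These values overlapped (log2 change -0.26, 95% interval -0.69 to 0.18, edgeR adjusted p = 0.351), and the sign turned positive without EV library 1 (0.11).

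The size of the change in the other 3 members, and for NQO1 its sign, moved with the EV library used. NQO1 was at 404 and 181 CPM in the EV and at 179 and 201 CPM in the MEOX2 libraries, and its log2 change of -0.62 (edgeR adjusted p = 0.15) became 0.11 without EV library 1 and -1.06 without EV library 2. OSGIN1 was at 67.9 and 24.1 CPM in the EV and at 80.6 and 84.7 CPM in the MEOX2 libraries. Both MEOX2 libraries lay above both EV libraries, with a log2 change of 0.85 (edgeR adjusted p = 0.121) that became 1.82 without EV library 1 (edgeR adjusted p = 1.22e-11) and 0.32 without EV library 2 (edgeR adjusted p = 0.0234). SRXN1 had 3 and 40 counts in the EV and 24 and 52 counts in the MEOX2 libraries, and its log2 change of 0.77 became 0.01 without EV library 1 and 3.44 without EV library 2.

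NFE2L2, HMOX1, GCLM and TXNRD1 passed as higher without either EV library, the lone EV library being assumed to vary like the other groups. Without EV library 1 their log2 changes were 0.74, 1.85, 0.73 and 1.77, and OSGIN1 passed as the fifth, where 20.4% of 18318 genes passed as higher and 18.4% as lower. Without EV library 2 the log2 changes were 1.01, 1.51, 1.22 and 2.88, where 30.4% of 18374 genes passed as higher and 29.1% as lower. KEAP1 (-0.49) and NQO1 then passed as lower, and SRXN1 and OSGIN1 as higher. With the 4 U87 libraries alone 0 members and 0 of 14180 genes passed by edgeR (0% higher and 0% lower), while 2643 genes, 18.6%, and 4 of the 8 members had an unadjusted p under 0.05. The smallest adjusted p of that fit was 0.123. The calls in U87 therefore rest on the spread of all 10 libraries. Between the EV libraries themselves the log2 difference of library 1 from library 2 was -1.12 for TXNRD1, 1.16 for NQO1, 1.49 for OSGIN1 and -2.96 for SRXN1, and between -0.50 and 0.59 for the other 5 members. Among the called genes 43.0% were higher, against 61.5% with limma on log2(FPKM + 1).

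**Figure D3:**
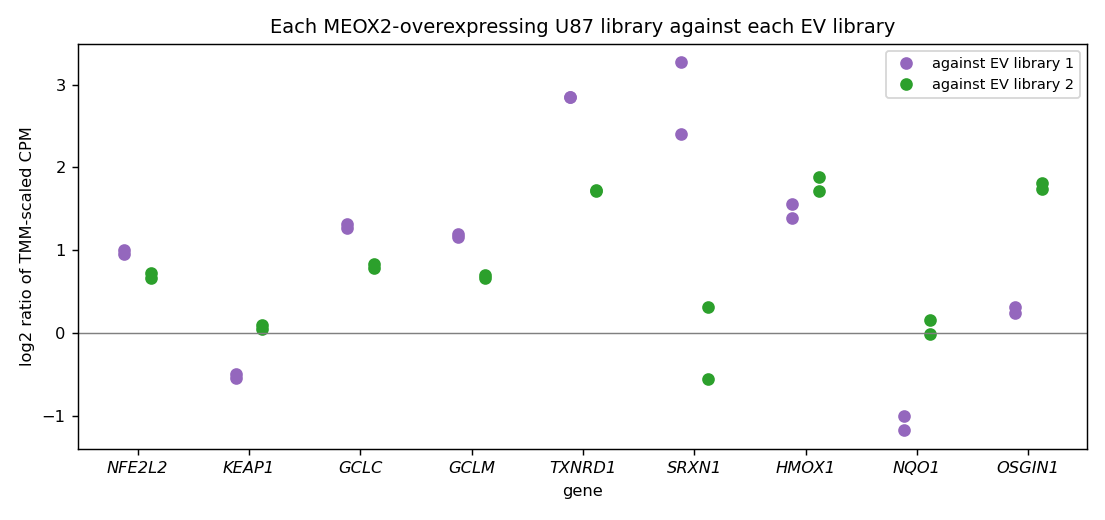
Log2 ratio of TMM-scaled CPM (y axis) of each of the 2 MEOX2-overexpressing U87 libraries to EV library 1 (purple) and to EV library 2 (green), for each member. Ratios for NFE2L2, GCLC, GCLM, TXNRD1 and HMOX1 are above 0.6 against both EV libraries, whereas KEAP1, NQO1 and SRXN1 sit on different sides of or near 0 depending on the EV library.

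The perturbations were opposite in sign for MEOX2, and the effects in the lines were compared directly by the difference between the log2 change after silencing and that after overexpression. In the joint fit HMOX1, GCLM and TXNRD1 differed, all 3 with the lower change in siMEOX2 SNB19. Of the 8 tested members 0 differed the other way there, also at an unadjusted p under 0.05, or by DESeq2 on the same libraries. Of all genes 7.33% passed with a lower and 8.36% with a higher change in SNB19. Without EV library 1 the difference was -0.61 for NQO1 and -1.60 for OSGIN1. Without EV library 2 it was 0.57 for NQO1 and -0.09 for OSGIN1. The direction of the NQO1 difference and the size of the OSGIN1 difference thus depended on the EV library kept. For HMOX1 the difference was -1.87 (SE 0.203, edgeR adjusted p = 0.000964), and it was called in every leave-one-out fit, with log2 differences from -2.08 to -1.73. For TXNRD1 it was -1.76 (SE 0.376, edgeR adjusted p = 0.0159), lost without MEOX2 library 1 (edgeR adjusted p = 0.0638) and without MEOX2 library 2 (0.0645). For GCLM it was -0.93 (SE 0.211, edgeR adjusted p = 0.0197) and was lost in 7 of the 10 leave-one-out fits, those without each control library, siMEOX2 library 2 or 3, or either MEOX2 library, with differences from -0.96 to -0.90 and adjusted p from 0.0506 to 0.0856. NFE2L2 had a difference of -0.24 with a 95% interval of -0.65 to 0.16 (edgeR adjusted p = 0.38). Its 0.59 in SNB19 and 0.83 in U87 were thus not shown to differ in the joint fit. The NFE2L2 difference was -0.145 without EV library 1 and -0.413 without EV library 2. Whether NFE2L2 changed differently in the lines therefore depended on the EV library kept. KEAP1 had a difference of -0.76 (SE 0.251, edgeR adjusted p = 0.0706), which was called by DESeq2 (adjusted p = 0.0273). The KEAP1 difference was -1.12 without EV library 1 and -0.51 without EV library 2. The comparison confounds the direction of the MEOX2 change with the line and its delivery.

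At baseline the lines held the pathway at different levels. In control SNB19 against EV-carrying U87, GCLM, HMOX1, TXNRD1 and NQO1 passed as higher and OSGIN1, NFE2L2 and KEAP1 as lower. GCLC is left out of these calls and is described below. Of all genes, 28.1% passed as higher and 28.8% as lower. GCLM was 5.63-fold (log2 difference 2.49, SE 0.164, edgeR adjusted p = 2.7e-06) and HMOX1 5.47-fold higher in SNB19 (2.45, SE 0.157, edgeR adjusted p = 2.3e-06). TXNRD1 was 2.76-fold higher (1.46, SE 0.277, edgeR adjusted p = 0.00179), with log2 differences of 1.002 without EV library 1 and 2.10 without EV library 2. GCLC was 1.60-fold higher (log2 difference 0.67, SE 0.158), with 0.45 and 0.91 in the same fits. The control values of GCLC entered the changes that selected the set, so this difference is a description without a test. NQO1 was 1.75-fold higher (edgeR adjusted p = 0.0334), but the log2 difference of 0.81 became 1.50 without EV library 1 and 0.31 without EV library 2. The NQO1 call was lost without each of the 3 control libraries, siMEOX2 libraries 2 and 3 and each MEOX2 library, at adjusted p from 0.0504 to 0.0716. OSGIN1 was 3.00-fold lower in SNB19 (log2 difference -1.59, SE 0.342, edgeR adjusted p = 0.00358), with -0.67 without EV library 1 and -2.18 without EV library 2. NFE2L2 was 1.98-fold lower (-0.99, SE 0.125, edgeR adjusted p = 0.000163) and KEAP1 1.68-fold lower (-0.75, SE 0.175, edgeR adjusted p = 0.00548). The KEAP1 difference was -0.43 without EV library 1 and -1.04 without EV library 2. SRXN1 was not called, at a log2 difference of 1.05 with a 95% interval of -0.52 to 2.62.

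A wider set of 81 pathway genes in 7 lists was counted in the same fits, and 76 of them passed the filter. After MEOX2 silencing 10 were called higher and 8 lower, with a median log2 change of -0.11 against -0.0013 for all genes, of which 6.99% were called higher and 8.75% lower. With the SNB19 libraries alone 25 of 75 were higher and 31 lower, against 27.4% and 28.5% of all genes. After MEOX2 overexpression 14 were called higher and 25 lower, with a median of -0.57 against -0.02 for all genes, of which 11.3% were called higher and 14.9% lower. Without EV library 1 the same counts were 25 and 25 of 77 with a median of -0.014, against 20.4% and 18.4% of all genes. Without EV library 2 they were 21 and 45 with a median of -0.66, against 30.4% and 29.1% of all genes. Lower calls outnumbered higher ones in U87 with EV library 1 and did not without it. The counts of the single lists that follow are small and are to be read against the all-gene shares of the joint fit, 6.99% higher and 8.75% lower after silencing and 11.3% and 14.9% after overexpression.

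Of the regulators 7 of 12 were higher and 0 lower in U87 (median log2 change 0.95), and 2 were higher and 0 lower after silencing. The 7 in U87 were NFE2L3, MAFF, MAFK, SQSTM1, MAFG, BACH1 and BTRC. SQSTM1 changed there by 1.65 (1.305 without EV library 1) and MAFG by 1.46 (1.18). BACH1 changed by 1.30 (0.85) and BTRC by 0.58 (0.35). Without EV library 1 there were 7 higher and 1 lower (median 0.60). The small MAF proteins are the dimer partners of NRF2. MAFF was at 13.7, 13.7 and 15.2 CPM in control and 42.6, 46.9 and 46.4 CPM in siMEOX2 SNB19, a log2 change of 1.67 (SE 0.122, edgeR adjusted p = 0.000117). In U87 it was at 54.1 and 66.4 CPM in the EV and 228 and 241 CPM in the MEOX2 libraries (log2 change 1.96, SE 0.148, edgeR adjusted p = 7.29e-05). MAFF was thus higher without overlap in both perturbed lines. MAFK rose in U87 (1.94, edgeR adjusted p = 0.00223, with 1.52 without EV library 1 and 2.67 without EV library 2), as did NFE2L3, an NRF2 paralog (2.47), although NFE2L3 stayed under 2.5 CPM there. NFE2L1, a further paralog, rose after silencing (1.02, edgeR adjusted p = 0.0145). SQSTM1 encodes p62, which binds KEAP1 and draws it into autophagy. Its effect was lower in SNB19 than in U87 by 2.27 on the log2 scale (edgeR adjusted p = 0.00311), with 977 to 1064 CPM in the controls, 662 to 672 CPM after siRNA, 359 and 675 CPM in EV and 1520 and 1713 CPM in MEOX2 libraries.

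In the glutathione list 2 of 21 tested genes were higher and 1 lower after silencing, and 2 higher and 7 lower after overexpression. SLC7A11 and SLC3A2 are the 2 chains of the cystine importer that feeds glutathione synthesis. SLC7A11 was at 54.6, 50.5 and 45.5 CPM in control and 141, 180 and 191 CPM in siMEOX2 SNB19 (log2 change 1.76, SE 0.270, edgeR adjusted p = 0.00329), and at 34.1 and 78.3 CPM in EV and 298 and 264 CPM in MEOX2 U87 (2.32, SE 0.337, edgeR adjusted p = 0.00164). SLC3A2 changed by 1.17 in SNB19 (edgeR adjusted p = 0.00336) and by 1.48 in U87 (edgeR adjusted p = 0.00196). Both chains were higher in both perturbed lines. In U87 the change of SLC7A11 was 1.89 without EV library 1 and 3.07 without EV library 2, and that of SLC3A2 was 1.96 and 1.18. GSTM4, a glutathione transferase whose close paralogs may share its reads, was lower after silencing (-1.76, edgeR adjusted p = 0.000207) and after overexpression (-1.49, edgeR adjusted p = 0.000807). MGST2 (-2.81) and GGCT (-1.78) were called lower in U87, with smaller changes of -1.56 and -0.53 without EV library 1. MGST2 was low there, at means of 3.34 CPM in EV and 0.448 CPM in MEOX2 libraries.

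In the thioredoxin list 1 of 11 genes was higher and 1 lower after silencing, and 1 higher and 4 lower after overexpression. TXNIP, which binds and inhibits thioredoxin, was at 178, 162 and 163 CPM in control and 76.1, 102 and 81.1 CPM in siMEOX2 SNB19, and at 185 and 267 CPM in EV and 604 and 624 CPM in MEOX2 U87. It fell by 0.96 on the log2 scale in SNB19 (edgeR adjusted p = 0.00578), rose by 1.44 in U87 (edgeR adjusted p = 0.0015), and the effects differed (-2.40, SE 0.264, edgeR adjusted p = 0.00101). PRDX2 was lower in U87 at -1.44, and at -0.60 without EV library 1. TXN2 was called lower at -1.26, and at -0.17 without EV library 1 it was not called (edgeR adjusted p = 0.246).

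Among the NADPH-supplying enzymes, IDH1, the cytosolic isocitrate dehydrogenase, was higher after silencing (log2 change 0.42, SE 0.101, edgeR adjusted p = 0.0239). The transketolase TKT was lower after overexpression (-0.72, SE 0.180, edgeR adjusted p = 0.0194, and -0.41 without EV library 1).

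In the heme and iron list 2 of 7 tested genes were higher and 0 lower after silencing, namely FECH (0.68) and the heme transporter SLC48A1 (0.38). After overexpression FTH1 and SLC48A1 were higher and BLVRA lower. The ferritin heavy chain FTH1, which stores the iron that heme oxygenases release and has many processed pseudogenes, was at 2846 and 2063 CPM in EV and 4634 and 5163 CPM in MEOX2 U87 (log2 change 1.00, SE 0.187, edgeR adjusted p = 0.00558). BLVRA, the next enzyme after HMOX1, was at -1.52, and at -0.40 without EV library 1. Detoxification and export genes had 1 of 16 higher and 3 lower after silencing, with EPHX1 (-0.99), ABCC3 (-0.94) and UGDH (-0.69) lower, of which EPHX1 (-0.87, and -0.44 without EV library 1) and ABCC3 (-0.86) were also called lower in U87. They had 1 higher and 8 lower after overexpression, with the largest changes in CBR3 (-3.02), AKR1B10 (-2.95) and CBR1 (-1.74), which were -1.996, -2.43 and -0.66 without EV library 1. CBR3 and AKR1B10 were low, at means of 4.76 and 7.26 CPM in EV and 0.567 and 0.929 CPM in MEOX2 U87. Of the 4 superoxide and hydrogen peroxide genes, mitochondrial SOD2 was higher after silencing (1.47, SE 0.203, edgeR adjusted p = 0.00207) and in U87 (1.03, edgeR adjusted p = 0.0156). SOD3 was lower in both (-1.54, and -2.08 in U87 or -1.26 there without EV library 1), as was the catalase gene CAT (-0.64 and -1.58), and SOD1 was lower in U87 (-1.65, and -0.47 without EV library 1). The symbol SOD2 had more than 1 entry in the count table, and its values are those of the entry that passed the filter on low counts.

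**Figure D4:**
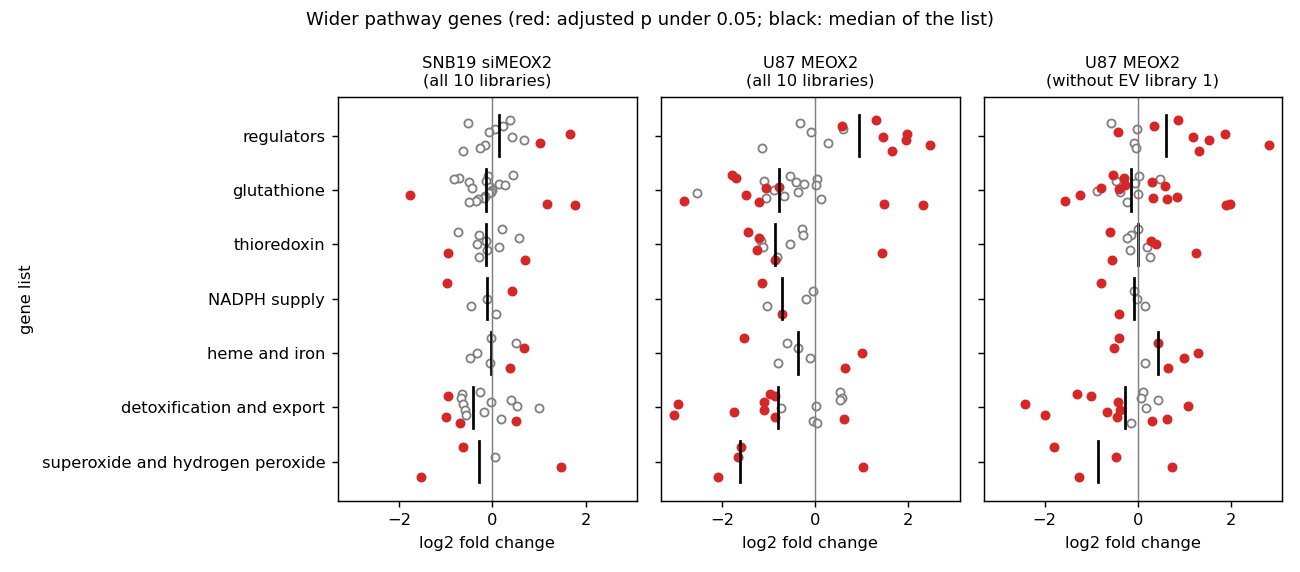
Log2 fold change (x axis) of the 76 or 77 wider pathway genes in 7 lists, each point a gene, red where the edgeR adjusted p was under 0.05, with a black line at the list's median. The median of the regulators lies at 0.95 and 0.60 in the U87 fits, whereas the glutathione and thioredoxin medians of -0.77 and -0.85 move to -0.15 and -0.0013 when EV library 1 is left out.

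The pattern of GCLC over the 10 libraries was compared with that of every other tested gene by Pearson's r on log2 CPM, as a description. The 5 most similar were TTC28 (0.994), ESF1 (0.994), WDR48 (0.994), GZF1 (0.986) and IL6R (0.981). TXNRD1 followed at r = 0.979, rank 8 of 17311 genes. SRXN1 (0.754), HMOX1 (0.718) and GCLM (0.639) were further down, NFE2L2 was at 0.133, and NQO1 (-0.138), OSGIN1 (-0.171) and KEAP1 (-0.656) were negative. The 10 points share 4 groups and 2 lines, and EV library 1 is among them.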

How the data were processed

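Poly(A) RNA of 10 libraries was sequenced as paired-end reads. The submitters' processing notes name HISAT2, HTSeq 0.11.2, DESeq2 1.26.0 and GRCh38. The authors deposited 1 table with raw gene counts and FPKM values for each library, and the lengths behind the FPKM values of the members equal their GENCODE release 29 exon lengths. Counts were fitted with edgeR 4.0.16 in R 4.3.3 (quasi-likelihood, TMM scaling, filterByExpr, 4 group means over all 10 libraries), p-values were adjusted by Benjamini-Hochberg over all genes of a contrast, and genes were called at an adjusted p under 0.05. Intervals are 95% and two-sided. FPKM served for levels between genes. The scripts were tested on simulated data with 200 changed genes. Alternatives were DESeq2 1.42.0, other scalings, no filter, limma 3.58.1 on log2(FPKM + 1) or log2(FPKM + 0.1), each line alone, a 2-fold threshold, the replicate number as a block and 10 leave-one-out fits. No 2 libraries agreed within sampling noise. Depth was 12533775 to 16560324 counts a library, and SRXN1 at 3 to 134 counts is the least precise member.

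The members and wider lists were chosen with earlier results of these data known. Named are all 9 members, MEOX2, the 5 genes most similar to GCLC and all regulators called in U87. Further named are up to 3 called genes of each wider list and contrast with the largest absolute change. The values of such a gene in the other line were added after they were seen. The treatment labels of 3 U87 libraries name MEOX3, MEOX4 or MEOX5, and the groups were taken from the titles. One result of the wider lists is not reported here.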

Additional observations from a re-analysis of the deposited data

Results flagged for a closer look

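For 3 members the change after MEOX2 silencing in SNB19 differed from the change after MEOX2 overexpression in U87 by a test of the difference itself in the joint edgeR fit. HMOX1 changed by -0.24 in SNB19 and by 1.63 in U87, a difference of -1.87 on the log2 scale (SE 0.203, edgeR adjusted p = 0.000964). TXNRD1 changed by 0.43 and by 2.18, a difference of -1.76 (SE 0.376, edgeR adjusted p = 0.0159). GCLM changed by -0.02 and by 0.91, a difference of -0.93 (SE 0.211, edgeR adjusted p = 0.0197). Without EV library 1 these differences were -2.08, -1.34 and -0.74, and without EV library 2 they were -1.73, -2.44 and -1.22. The direction of the MEOX2 change, the cell line and the delivery of siRNA or lentivirus cannot be told apart in this difference. Groups of 2 or 3 libraries were too small for a search for single outlying values.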

How the results depend on the processing

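Of 612 values of the members under alternatives, 538 kept their direction and their side of the threshold, 24 lost and 29 gained a call, 2 without a test moved and 19 changed sign. Leaving out 1 library at a time gave 0 to 3 members higher and 1 to 3 lower after silencing, 4 to 6 higher and 0 to 2 lower after overexpression, and 0 to 1 higher and 1 to 6 lower in the difference between the effects. Fits of 1 line gave 3 higher and 3 lower members in SNB19 and 0 higher in U87. A 2-fold threshold left 0 members higher after silencing, 2 higher after overexpression, and 3 higher and 1 lower at baseline. The replicate block was not backed by pairing: same-numbered deviations correlated at 0.0026 to 0.0588 in SNB19, where each library was not closest to its own number in every case, and at -0.162 in U87. With the replicate block 0 members were higher after silencing (NFE2L2, edgeR adjusted p = 0.0683), wider genes were 4 higher and 5 lower, and in U87 6 were lower. All genes fell from 1210 and 1515 to 391 and 581 calls in SNB19 and from 1951 and 2587 to 924 and 1202 in U87 with this block. A crossed pairing in U87, chosen after seeing the data, gave 4 and 0 members and 1721 and 1989 genes.

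Wider genes, in fits added after seeing the data, gave 25 higher and 29 lower after silencing without EV library 1 and again without EV library 2, and 25 and 31 in SNB19 alone. After overexpression they gave 25 higher without EV library 1, 21 higher and 45 lower without EV library 2, and 0 and 0 in U87 alone. In the difference between effects, 10 higher and 5 lower became 16 and 8 by DESeq2, 17 higher without a filter, 19 and 26 without EV library 1, and 41 and 18 without EV library 2. The cause was not tested.

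Sign changes were those of GCLM after silencing (0.058 with upper-quartile scaling, 0.070 and 0.072 with limma at the larger and smaller pseudocount, leave-one-out from -0.035 to 0.010), of KEAP1 after overexpression (0.0078 and 0.0081 with limma, leave-one-out from -0.49 to 0.11) and of NQO1 after overexpression (leave-one-out from -1.06 to 0.11). The difference for NQO1 was -0.13 with limma at either pseudocount (leave-one-out from -0.61 to 0.57). That for SRXN1 was -0.0078 with DESeq2 size factors, -0.038 by DESeq2 and -0.49 with limma at the smaller pseudocount (leave-one-out from -2.63 to 0.79). FPKM with the smaller pseudocount moved the median of all genes to 0.41 at baseline, from 0.03, and to 0.16 after overexpression, from -0.02. Counts were lowest for SRXN1, which shares 85.0% of its exon bases with another gene.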
